A study of Homo sapiens with 24 samples.

Results

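WDR38, OLFML2A, ARPC5L and GOLGA1 are 4 genes that lie close together on the long arm of human chromosome 9, and they are described here across the 24 libraries of a knockdown experiment. They are 4 of the 60658 genes counted. WDR38 was chosen by its measured counts, which were lower after knockdown with a synthetic guide, and the other members by their position beside it, so the values of all 4 genes in that contrast are given as a description, with no test.

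The RNA came from SH-SY5Y cells, per their label a human neuroblastoma line, harvested 48 h after transfection, with the aim of measuring off-target effects of depleting the circular RNA ciRS-7, also called CDR1as. Each of 4 setups had a knockdown group (KD) directed at CDR1as and its own none-targeting control group (NTC), with 3 libraries per group and 8 groups in all. In the agoshRNA setup, vectors expressed a short hairpin RNA processed by Argonaute, with no CasRx plasmid mentioned in the labels. In the gRNA and pre-gRNA setups, both KD and NTC cells received the vector pcDNA3_CasRx-GFP, which encodes an RNA-guided nuclease, together with a plasmid for a mature or a precursor guide, and the plasmids of these 3 setups were delivered with Lipofectamine 3000. The syn-gRNA setup used a guide made by chemical synthesis, and neither its delivery nor the source of its CasRx is described in the labels. The counted reads of a library summed to between 10994974 and 16233777. Libraries are named by the letter A, B or C of their column, since nothing links these letters to the replicate numbers of the labels. No label says that the 3 libraries of a group came from separate cultures, so p-values measure only the spread between these libraries, which may be technical.

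The label of the cells was set against marker genes. Of 6 noradrenergic neuroblastoma markers, 0 had a mean above 10 CPM, which are counts scaled to the total of the library, and their summed level was 0.658 to 3.94 CPM per library. The mean of TH, the rate-limiting enzyme of catecholamine synthesis, was 0.0026 CPM and that of DBH was 0.019 CPM. Of 5 kidney-lineage markers, 4 had means above 10 CPM, led by HOXA9 at 98.2 CPM, and the summed level was 126 to 327 CPM. PAX8 was the kidney-lineage marker that went the other way, at 0.0138 CPM. Among the noradrenergic markers CHGA was highest, at 1.945 CPM with 9 to 63 counts per library, and PHOX2A followed at 0.0932 CPM. The noradrenergic markers other than CHGA were therefore at or near 0, CHGA was low, and the cells are called here by their label only. No count of the circular RNA itself was used here, so the counts give no direct check of the knockdown: its host transcript LINC00632 had 16 to 132 counts per library and CDR1 had 0 to 26.

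WD repeat proteins such as WDR38 fold into propeller-shaped scaffolds on which other proteins assemble. Genes that lie end to end on opposite strands can have transcripts that run into each other, and in a library that does not record the strand a read from such a shared end fits both genes. Genes that start back to back on opposite strands often share a promoter region, which is commonly rich in CpG dinucleotides.

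In the deposited hg19 coordinates the locus begins with OLFML2A (ENSG00000185585.19_3, plus strand, chr9:127539437-127577164), which encodes a secreted glycoprotein with an olfactomedin domain. WDR38 (ENSG00000136918.7_3, plus strand, chr9:127615696-127620169) starts 38531 bases after the end of OLFML2A. RPL35 (ENSG00000136942.14_2, minus strand, chr9:127620159-127624260), which encodes a protein of the large ribosomal subunit, lies tail to tail with WDR38, and the last 11 bases of the 2 genes overlap. ARPC5L (ENSG00000136950.13_2, plus strand, chr9:127624409-127640012), a paralogue of the ARPC5 subunit of the actin-branching Arp2/3 complex, starts 148 bases from the start of RPL35 on the opposite strand. GOLGA1 (ENSG00000136935.13_3, minus strand, chr9:127640636-127710771), which encodes golgin-97 of the trans-Golgi network, ends 623 bases beyond the end of ARPC5L and shares 5885 bases on the same strand with SCAI. RPL35 is no member, but several results turn on it: the libraries were non-stranded, so reads in the stretch shared by WDR38 and RPL35 cannot be told apart. Reads in the stretch shared by GOLGA1 and SCAI cannot be told apart by strand in any library, since both genes lie on the minus strand.

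The starts of the genes are shown because WDR38 and RPL35 share their far ends and not their starts, while RPL35 and ARPC5L share theirs. The sequences are from RefSeq on GRCh38, whose coordinates differ from those of hg19 above, and all 4 members had an entry. The first stretch is the plus strand of chr9:124853210-124853416, 207 bases that end where the WDR38 gene of GENCODE v29 begins, and the second is the plus strand of chr9:124861982-124862129, the 148 bases between the GENCODE v29 starts of RPL35 and ARPC5L. The RefSeq start of WDR38 lies further downstream and that of RPL35 inside its GENCODE gene. Capitals mark a CCAAT motif, and lower case carries no mark.
WDR38 upstream stretch: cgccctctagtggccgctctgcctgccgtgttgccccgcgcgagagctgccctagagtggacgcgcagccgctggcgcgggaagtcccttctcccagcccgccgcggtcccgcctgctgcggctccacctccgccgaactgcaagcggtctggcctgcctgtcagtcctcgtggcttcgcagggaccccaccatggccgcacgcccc
Stretch between RPL35 and ARPC5L: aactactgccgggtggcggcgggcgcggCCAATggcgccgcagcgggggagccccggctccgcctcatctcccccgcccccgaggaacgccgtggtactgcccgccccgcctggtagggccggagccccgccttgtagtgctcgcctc
The WDR38 stretch held 23 CpG dinucleotides and 73.4% G or C, and the stretch between RPL35 and ARPC5L held 19 CpG and 77.0% G or C. The motifs CCAAT and TATAAA were searched on both strands. The WDR38 stretch held 0 of each, and the stretch between RPL35 and ARPC5L held 1 CCAAT and 0 TATAAA. Of 35116 RefSeq windows of 300 bases around gene starts, 34.6% held CCAAT and 11.5% held TATAAA. These matches describe the letters only.

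Levels were compared between genes per kilobase of the length given in the deposited tables. WDR38 had a mean of 49.0 CPM per kb over the 24 libraries, below RPL35 at 950 and above ARPC5L at 11.1, GOLGA1 at 2.14 and OLFML2A at 0.296 CPM per kb. Without the length, the means were 68.0 ± 19.2 CPM for WDR38, 40.2 ± 7.30 for ARPC5L, 12.9 ± 4.54 for GOLGA1 and 1.99 ± 1.16 CPM for OLFML2A (SD, n = 24). OLFML2A rested on 9 to 62 counts per library and GOLGA1 on 69 to 290, while WDR38 had 557 to 1619 counts and ARPC5L 382 to 769. ARPC5L was the steadiest member, with a highest level 2.36 times its lowest, and only 7.43% of the 17198 genes with a mean of at least 1 CPM had a smaller SD of log2 CPM. The same ratio was 2.699 for WDR38, 4.96 for GOLGA1 and 6.24 for OLFML2A, with 39.7%, 70.7% and 75.3% of genes having a smaller SD.

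In the syn-gRNA setup the WDR38 level was 61.5, 61.9 and 60.0 CPM in KD libraries A, B and C, and 59.4, 97.6 and 106 CPM in NTC libraries A, B and C. The KD libraries were nearly equal, at 61.1 ± 0.971 CPM (SD, n = 3), while the controls spread over 87.8 ± 25.0 CPM. NTC library A lay below all 3 KD libraries, so the groups overlapped and the lower KD mean came from NTC libraries B and C. The log2 fold change of KD over NTC was -0.55 with a standard error of 0.21 (DESeq2), which is a fold of 0.685, and 184 of the 18513 genes tested had a lower value. Without NTC library A it was -0.79, and WDR38 was then the 1 gene called by DESeq2, which is no independent support since this contrast chose it. Without NTC library C it was -0.37. With the column letter as a term in the model it was -0.49, with a wider standard error of 0.29. In the authors' deposited table the log2 fold change of WDR38 in this setup is -0.52. Across all genes of this contrast 0% were called at an adjusted p of 0.05 by DESeq2, 55 had an unadjusted p below that level, and edgeR called 0 with 176 unadjusted. The 55 are 0.297% of the genes tested, fewer than such a level passes when nothing changes. The lack of calls does not show that nothing changed. In bulk RNA, fewer cells that express a gene and less of its RNA per cell cannot be told apart.

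The neighbours differed in direction in the syn-gRNA setup: RPL35 and ARPC5L had lower KD means, and GOLGA1 and OLFML2A did not. RPL35 stood at 1338, 1546 and 1319 CPM in KD libraries A to C and at 1298, 1712 and 1916 CPM in the controls. NTC library A was again the lowest of its group and NTC libraries B and C the highest of the 6, and the log2 fold change was -0.24 (standard error 0.18, DESeq2). ARPC5L stood at 41.7, 38.8 and 38.5 CPM in KD and at 43.0, 39.2 and 46.5 CPM in NTC, a log2 fold change of -0.12 (0.15). The groups of ARPC5L overlapped, since KD library A exceeded NTC library B. GOLGA1 stood at 16.6, 11.7 and 12.9 CPM in KD and at 15.6, 12.7 and 11.6 CPM in NTC, a log2 fold change of 0.04 (0.20). OLFML2A stood at 1.51, 1.10 and 0.819 CPM in KD and at 0.872, 0.974 and 1.38 CPM in NTC, a log2 fold change of 0.08 (0.51). Neither gene showed a lower KD group, and the KD values of each lay on both sides of control values. In this setup 2.12% of 17198 genes had each KD library below each NTC library and 2.47% had each above, and of the 4 members 0 did either.

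Of the 29 genes with a midpoint within 500 kb of that of WDR38, 14 had enough counts to be tested in at least 1 setup, 13 of them in all 4, and 15 in none. In the syn-gRNA setup 5 of 14 were lower in KD and 9 higher, with a median log2 fold change of 0.03, against a median of 0.00 and 49.9% lower over all genes tested. WDR38 had the lowest value, followed by RPL35, then the orphan nuclear receptor gene NR6A1 at -0.17, ARPC5L, and RP11-366O20.4 at -0.11. SCAI, which encodes a repressor of MRTF-dependent transcription, had 0.12, and HSPA5, the chief chaperone of the endoplasmic reticulum, also had 0.12. PPP6C, a phosphatase catalytic subunit, had 0.01 and the proteasome subunit gene PSMB7 had 0.02. The 5 lower values thus stood at WDR38, at the 2 genes next to it on one side, and at NR6A1 and RP11-366O20.4 farther away. GOLGA1 beyond ARPC5L and OLFML2A on the other side of WDR38 were above 0. The 95% intervals of RPL35 (-0.59 to 0.10) and ARPC5L (-0.41 to 0.16) included 0, so these values do not show a fall shared with WDR38. Of all genes tested in this setup, 0.994% had a lower value than WDR38, 6.78% a lower value than RPL35 and 19.6% a lower value than ARPC5L. The differences between WDR38, RPL35 and ARPC5L were not tested. Without KD library A 64.3% of the 14 genes were lower, and without NTC library A or NTC library C 57.1% were.

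In the other 3 setups, which played no part in the choice of WDR38, its level moved in both directions and 0 of the 4 members were called. In the agoshRNA setup WDR38 stood at 83.6, 60.7 and 94.0 CPM in KD and at 74.8, 80.0 and 76.8 CPM in NTC. The KD libraries lay on both sides of the controls, with a log2 fold change of 0.06 (standard error 0.34; DESeq2 adjusted p = 1). In the gRNA setup it stood at 89.1, 65.3 and 45.5 CPM in KD and at 53.4, 59.9 and 41.1 CPM in NTC. KD libraries A and B exceeded all controls while KD library C did not, with a log2 fold change of 0.49 (0.40; DESeq2 adjusted p = 1). Without KD library A that value was 0.17. In the pre-gRNA setup WDR38 stood at 46.3, 79.4 and 39.5 CPM in KD and at 61.7, 91.8 and 42.5 CPM in NTC. Each KD library lay below the control of the same letter, whereas in the gRNA setup each lay above it. The share of all genes with such a pattern is not given here. The pre-gRNA groups overlapped, with a log2 fold change of -0.28 (0.54; DESeq2 adjusted p = 1.00) that was 0.26 without NTC library B. With the letter as a term in the model, the pre-gRNA value was -0.28 with a standard error of 0.12 and a DESeq2 adjusted p of 0.831. In that fit the WDR38 value was 0.05 (0.19) in the agoshRNA and 0.44 (0.22) in the gRNA setup.

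Exact two-sided permutation tests of WDR38, for which 3 against 3 libraries allow no p below 0.1, gave p = 1 in the agoshRNA, p = 0.4 in the gRNA and p = 0.6 in the pre-gRNA setup. The DESeq2 background of genes called was 0% in the agoshRNA, 0% in the gRNA and 0% in the pre-gRNA setup, with 0, 17 and 2 genes at an unadjusted p below 0.05. By edgeR 0 genes were called in each of these setups, with 3, 34 and 11 at that unadjusted level. The DESeq2 numbers are 0%, 0.0925% and 0.0107% of the genes tested, far fewer than a level of 0.05 passes when nothing changes. The lack of calls therefore does not show that nothing changed. The share of genes with each KD library below each NTC library was 0.727% in the agoshRNA, 1.73% in the gRNA and 0.518% in the pre-gRNA setup. The share with each KD library above each NTC library was 0.0872%, 0.372% and 0.419%. In none of these setups did the groups of any of the 4 members separate.

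RPL35 had the same sign as WDR38 in each of these setups, at 0.14 (standard error 0.33) with agoshRNA, 0.41 (0.41) with gRNA and -0.20 (0.55) with pre-gRNA on the log2 scale. The longest transcripts of WDR38 and RPL35 held 62.1% and 63.7% G or C, against a median of 49.0% over the genes tested in the agoshRNA setup. Over all genes tested, the log2 fold change was related to the GC content of the longest transcript, with Spearman's rho across genes of 0.27 in the agoshRNA, 0.46 in the gRNA, -0.55 in the pre-gRNA and -0.31 in the syn-gRNA setup. Genes are not independent replicates, and these values describe the libraries. In the 10% of genes with the highest GC content, which hold WDR38, the median log2 fold change was 0.19, 0.24, -0.15 and -0.08 in the same order. In the syn-gRNA setup 1.43% of that 10% of genes had a lower value than WDR38, and 13% a lower value than RPL35. This contrast chose WDR38, so its low rank follows from the choice and supports nothing. The part of GC content in the values of WDR38 was not tested.

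ARPC5L stood in the agoshRNA setup at 42.0, 28.97 and 59.2 CPM in KD libraries A to C and at 38.6, 25.1 and 52.9 CPM in NTC. The letters differed more than the groups did: library C was highest and library B lowest in both. In the gRNA setup it stood at 41.1, 34.2 and 33.6 CPM in KD against 39.9, 38.0 and 32.7 CPM in NTC, and in the pre-gRNA setup at 42.9, 45.5 and 36.6 against 47.4, 43.6 and 34.1 CPM. The KD and NTC groups overlapped throughout, with log2 fold changes of 0.20 (standard error 0.46), 0.09 (0.32) and -0.03 (0.39), all at a DESeq2 adjusted p of 1.00. Exact permutation p-values were 0.7, 1 and 1.

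The 10 genes of the Arp2/3 complex, which nucleates branched actin filaments, were all tested and 0 were called in any setup. In the syn-gRNA setup 3 were higher and 7 lower in KD, with a median of -0.04 on the log2 scale against 0.00 for all genes, and ARPC5L had the lowest value of the 10. In the agoshRNA setup 5 were higher and 5 lower with a median of -0.03 against 0.06 for all genes, and ARPC5L had the highest value. In the gRNA and pre-gRNA setups 5 and 6 of the 10 were higher, with medians of 0.04 and 0.04 against 0.02 and 0.01. ARPC5L stood at 11.1 CPM per kb, near its paralogue ARPC5 at 8.15, while ACTR2 stood at 64.4 and ARPC1A at 78.4 CPM per kb.

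GOLGA1 stood in the agoshRNA setup at 6.48, 18.04 and 7.19 CPM in KD and at 11.1, 13.9 and 11.7 CPM in NTC. KD library B was the highest of the 6 and KD libraries A and C the lowest. In the gRNA setup it stood at 6.85, 13.5 and 19.4 CPM in KD and at 15.8, 14.0 and 21.4 CPM in NTC. The groups overlapped, and each KD library lay below the control of its letter, a pattern whose share over all genes is not given here. In the pre-gRNA setup GOLGA1 stood at 14.0, 4.83 and 17.03 CPM in KD and at 10.8, 4.32 and 17.3 CPM in NTC, with library B lowest in both groups. The log2 fold changes were -0.15 (standard error 0.57), -0.29 (0.43; -0.0013 without KD library A) and 0.12 (0.55), at DESeq2 adjusted p-values of 1.00, and exact permutation p-values were 0.5, 0.4 and 0.8.

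All 9 golgins of the list, coiled-coil tethers of the Golgi apparatus, were tested and 0 were called in any setup. In the agoshRNA setup 8 were higher in KD and GOLGA1 was the 1 that was lower, with a list median of 0.10 against 0.06 for all genes on the log2 scale. In the gRNA setup 4 were higher and 5 lower, with GOLGA1 again lowest and a median of -0.01 against 0.02. In the pre-gRNA setup 6 were higher and in the syn-gRNA setup 7, with medians of 0.12 and 0.03 against 0.01 and 0.00. The best expressed golgin per length was GOLGA2, at 12.6 CPM per kb against 2.14 for GOLGA1.

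OLFML2A stood in the agoshRNA setup at 4.52, 1.22 and 1.71 CPM in KD and at 4.03, 0.723 and 1.79 CPM in NTC. In the gRNA setup it stood at 3.13, 1.20 and 1.59 against 4.19, 1.51 and 2.29 CPM, and in the pre-gRNA setup at 2.76, 1.11 and 2.44 against 3.82, 1.00 and 2.18 CPM. Library A was the highest of its group in all 6 of these groups and library B the lowest, while KD and NTC overlapped. In the gRNA setup each KD library lay below the control of its letter, a pattern whose share over all genes is not given here. The log2 fold changes were 0.23 (standard error 0.72), -0.29 (0.56) and -0.16 (0.55), at DESeq2 adjusted p-values of 1.00, with exact permutation p-values of 0.8, 0.6 and 1. At these counts a change within those errors was not detectable. Of 8 genes of the olfactomedin family 4 had enough counts, and 0 were called: 4 were higher in KD with agoshRNA, 2 with gRNA, 0 with pre-gRNA and 3 with syn-gRNA, at medians of 0.22, -0.02, -0.21 and 0.09 on the log2 scale in that order. Over all genes tested 60.4%, 54.2%, 52.0% and 50.1% were higher, at medians of 0.06, 0.02, 0.01 and 0.00. OLFML2A is itself among the 4, and OLFM1 and OLFML2B had means of only 0.971 and 1.48 CPM.

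WDR38 was also set against RPL35 library by library, a measure chosen after the values had been seen. The 24 libraries held 3.91 to 5.87 WDR38 counts per 100 RPL35 counts, with a mean of 4.65 ± 0.556 (SD, n = 24). The counts of each gene varied far more, by 2.91-fold for WDR38 and by 2.96-fold for RPL35, than the ratio did, at 1.501-fold. In the agoshRNA setup the ratio was 5.06 ± 0.114 in KD and 5.31 ± 0.497 in NTC (SD, n = 3, exact permutation p = 0.7). In the gRNA setup it was 4.57 ± 0.162 and 4.32 ± 0.327 (SD, n = 3, exact permutation p = 0.3). In the pre-gRNA setup it was 4.02 ± 0.179 and 4.25 ± 0.176 (SD, n = 3, exact permutation p = 0.3). The KD and NTC groups overlapped in each. In the syn-gRNA setup the ratio was 4.60, 4.00 and 4.55 in KD libraries A to C and 4.58, 5.70 and 5.56 in the controls. NTC libraries B and C were thus high in WDR38 also against RPL35, while NTC library A was not, and the difference of the mean log2 ratios was -0.26, against a difference of mean log2(CPM + 0.5) of -0.48 for WDR38 alone. Whether reads of RPL35 enter the count of WDR38 through the shared end was not tested.

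Across the 18 libraries outside the syn-gRNA setup, 4 relations of WDR38 were computed on log2(CPM + 0.5). The permutations shuffled these libraries freely, without regard to group or column letter. These libraries come from different groups and are not interchangeable, so the permutation p-values may be too small and do not establish a relation at their level. Nor do they show that a relation is particular to a pair of genes, and RPL35 was pursued after its values were seen. With RPL35, Pearson's r was 0.93 (permutation p = 1e-05, the smallest that 100000 permutations can give, adjusted 4e-05) and Spearman's rho 0.91 (permutation p = 1e-05, adjusted 4e-05). Without the 2 libraries farthest from the median of RPL35 r was 0.91. Within single setups it was 0.92 with agoshRNA, 0.98 with gRNA, 0.99 with pre-gRNA and 0.93 with syn-gRNA. With GOLGA1 the relation was inverse, at r = -0.82 (permutation p = 6e-05, adjusted 0.00012) and rho = -0.87 (permutation p = 2e-05, adjusted 4e-05), with r = -0.84 without the 2 farthest libraries. Within the setups r with GOLGA1 was -0.84, -0.98, -0.98 and -0.53 in the same order. With ARPC5L r was 0.40 (permutation p = 0.102, adjusted 0.136) and rho 0.52 (permutation p = 0.0309, adjusted 0.0412), with 0.53 without the 2 farthest libraries and 0.59, 0.71, 0.72 and 0.43 within setups. With OLFML2A r was -0.18 (permutation p = 0.469, adjusted 0.469) and rho -0.21 (permutation p = 0.409, adjusted 0.409), -0.24 without the 2 farthest libraries, and 0.19, 0.12, -0.67 and 0.29 within setups. All of these libraries share their depth correction and their composition, and 62% of the variance over 17198 genes lay on 1 principal component, with which WDR38 had r = 0.50, RPL35 0.69, ARPC5L 0.46, OLFML2A 0.46 and GOLGA1 -0.85 over 24 libraries.

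RPL35 was not the gene most like WDR38. Over the 24 libraries it ranked 13 of 17197 genes by Pearson's r, at 0.92, behind genes that include the small ribosomal subunit gene RPS21 at 0.94. Of 74 ribosomal protein genes with a mean of at least 100 CPM, 22 were among the 50 genes most like WDR38, RPL35 was number 7 of the 74, and the median r was 0.76. Over the 18 libraries outside the syn-gRNA setup, RPL35 ranked 41 at r = 0.93, with the respiratory chain gene COX7A2 first at 0.97. There 18 of the 74 ribosomal protein genes were among the 50 genes most like WDR38, and RPL35 was number 16 of the 74. Over the 24 libraries, the genes most like GOLGA1 were RBBP7, which encodes a histone-binding chaperone, AC093726.6 and the kinase gene OXSR1, each at r = 0.98. The genes most like ARPC5L were MEF2B at 0.92, C2CD2L at 0.91 and RP11-1100L3.7 at 0.90, and those most like OLFML2A were WNT8B at 0.95, URB2 at 0.94 and POLR1A at 0.94. These names depend on the libraries: over the 18, the leading genes were GOT1 at 0.97, SH2D3C at 0.96 and TRIB3 at 0.94 for ARPC5L, and SMAP2 at 0.96, RASSF5 at 0.96 and WNT8B at 0.95 for OLFML2A, while RBBP7 again led for GOLGA1 at 0.99. Between neighbours over the 24 libraries, r was 0.83 for GOLGA1 and SCAI, which overlap on the same strand, 0.55 for RPL35 and ARPC5L, which start back to back, and -0.87 for RPL35 and GOLGA1. It was 0.79 for OLFML2A and NR6A1, which share no bases and lie 5847 bases apart. With the principal component named above, SCAI had r = -0.94 and GOLGA1 -0.85. The part of position in these relations was not tested, and they are descriptions across libraries of 8 groups.

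The controls of the setups were compared in 1 model of the 24 libraries. The NTC means of WDR38 were 77.2 ± 2.61 CPM with agoshRNA, 51.5 ± 9.52 with gRNA, 65.3 ± 24.9 with pre-gRNA and 87.8 ± 25.0 CPM with syn-gRNA (SD, n = 3). From the lowest mean upward, gRNA, pre-gRNA, agoshRNA and syn-gRNA, each group overlapped the next. The agoshRNA and gRNA controls did not overlap, but the share of all genes that separate this pair of controls is not given here. The difference of agoshRNA minus gRNA controls was 0.72 on the log2 scale (standard error 0.41; DESeq2 adjusted p = 1), and gRNA minus pre-gRNA was -0.53 (0.41; DESeq2 adjusted p = 0.988). OLFML2A stood at 0.872 to 1.38 CPM in the syn-gRNA controls and at 0.723 to 4.19 CPM in the other controls, with gRNA minus syn-gRNA at 1.15 on the log2 scale (0.58; DESeq2 adjusted p = 0.421). No member passed the test in any pair tested. The background of genes called was 0.0496% for agoshRNA minus gRNA, 0.0347% for agoshRNA minus pre-gRNA, 1.84% for agoshRNA minus syn-gRNA, 0% for gRNA minus pre-gRNA, 1.32% for gRNA minus syn-gRNA and 3.25% for pre-gRNA minus syn-gRNA. The pairs of WDR38 that use the syn-gRNA controls, which chose it, had -0.20, -0.92 and -0.39 for agoshRNA, gRNA and pre-gRNA minus syn-gRNA, given with no test. Delivery, guide type and library preparation cannot be told apart in these differences.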

How the data were processed

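Per the labels, poly(A) RNA of 24 samples was sequenced, paired-end with 100 nt per read, from libraries that do not keep the strand. The submitters' processing notes name Trim Galore, STAR 2.7.3a, featureCounts, DESeq2 and hg19; the settings and the annotation release are not given in the sources used here. The 4 deposited tables hold the same raw counts of 60658 genes, and beside them, per the file headers, the authors' log2 fold changes and p-values for each setup. Per-sample columns with no link to a label, 24 in each file, were not used.

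The 4 members were found by name. They and the gene lists were chosen with earlier results of these data known. For each setup DESeq2 1.42.0 (R 4.3.3) was fitted to the genes that reached 10 counts in 3 or more of its 6 libraries, with Benjamini-Hochberg adjustment over them and a call at an adjusted p below 0.05. The controls were compared in 1 model of 24 libraries. Exact permutation tests used log2(CPM + 0.5). The locus was the set of genes with midpoints within 500 kb of that of WDR38. Named genes were the members, the locus genes tested, and the 3 genes most like each member by Pearson's r over 24 libraries, of which some for WDR38 are not reported here. RPL35 was described in more depth after its values were seen, and the leading genes of the lists and the ribosomal protein genes were likewise named after their values were seen. Alternatives were edgeR 4.0.16, limma 3.58.1 with voom, TMM factors, no filter or a mean of at least 50 counts, the column letter as a term, all 24 libraries, other windows, and leaving out each library. The fit was run on simulated counts with planted changes to check the code. The spread of those counts was set and not taken from these libraries, so the run gives no measure of power here. GC content is that of the longest GENCODE v29 transcript on GRCh38. Promoter windows and sequences are from RefSeq.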

Additional observations from a re-analysis of the deposited data

How the results depend on the processing

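The KD effects of the 4 members kept their sign and stayed on the same side of the threshold in all 108 values from other tools, filters, factors, the column letter or all 24 libraries, of which 27 are of the syn-gRNA setup and only describe it. By replicate number, no paired analysis was possible because the letters of the columns carry no link to the replicate numbers of the labels. Whether a letter pairs libraries is not stated, so a fit by letter only assumes such pairs. A fit with the letter as a term was run, and it called 1 gene in the syn-gRNA setup, MALAT1, against 0. Leaving out a library called 0 to 1 genes there, the 1 being WDR38 without NTC library A, the control that overlapped KD, in the contrast that chose the gene; this call supports nothing.

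Over libraries left out, log2 KD effects ranged as follows. OLFML2A ran from -0.39 to 0.93 with agoshRNA, -0.86 to 0.14 with gRNA, -0.44 to 0.30 with pre-gRNA and -0.14 to 0.32 with syn-gRNA. WDR38 ran from -0.10 to 0.16 with agoshRNA, 0.17 to 0.72 with gRNA, -0.82 to 0.26 with pre-gRNA and -0.79 to -0.37 with syn-gRNA. ARPC5L ran from -0.12 to 0.49 with agoshRNA, -0.061 to 0.17 with gRNA, -0.23 to 0.17 with pre-gRNA and -0.16 to -0.042 with syn-gRNA. GOLGA1 ran from -0.89 to 0.14 with agoshRNA, -0.63 to -0.0013 with gRNA, -0.23 to 0.61 with pre-gRNA and -0.094 to 0.12 with syn-gRNA.

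Between controls, with only the 6 libraries of the pair, gRNA minus syn-gRNA was -0.94 for WDR38, a description since the syn-gRNA controls chose it; the cause of the difference from -0.92 was not tested. With a control library left out, OLFML2A ran from -0.89 to 0.24 for agoshRNA minus gRNA, -0.77 to 0.38 for agoshRNA minus pre-gRNA, -0.32 to 0.59 for gRNA minus pre-gRNA and 0.69 to 1.40 for gRNA minus syn-gRNA. WDR38 ran from -0.089 to 0.73 for agoshRNA minus pre-gRNA and -0.81 to 0.0091 for gRNA minus pre-gRNA, and, as a description, from -0.44 to -0.044 for agoshRNA, -1.16 to -0.76 for gRNA and -0.94 to -0.11 for pre-gRNA, each minus syn-gRNA. ARPC5L ran from -0.12 to 0.39 for agoshRNA minus gRNA, -0.44 to 0.085 for agoshRNA minus pre-gRNA, -0.48 to 0.037 for agoshRNA minus syn-gRNA and -0.24 to 0.13 for pre-gRNA minus syn-gRNA. GOLGA1 ran from -0.038 to 0.74 for agoshRNA minus pre-gRNA and -0.29 to 0.014 for agoshRNA minus syn-gRNA.

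The number of genes called between controls moved in both directions. By tool, edgeR called 16 for agoshRNA minus syn-gRNA against 371 by DESeq2, 0 against 266 for gRNA minus syn-gRNA and 149 against 656 for pre-gRNA minus syn-gRNA, and 3 against 10 and 2 against 7 for agoshRNA minus gRNA and minus pre-gRNA. With only the 6 libraries of the pair, DESeq2 called 1018 for gRNA minus syn-gRNA, 1319 for pre-gRNA minus syn-gRNA and 362 for agoshRNA minus syn-gRNA. Without syn-gRNA NTC library C these were 18, 104 and 43, and without NTC library B 23, 117 and 56. With windows of 250 and 1000 kb, 50% and 42.1% of locus genes were lower in syn-gRNA KD. Depth limits OLFML2A most, and 3 libraries a group limit every comparison.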
